A study of Mus musculus with 15 samples.

Results

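The transcripts followed here encode 10 forkhead transcription factors, Foxc1, Foxc2, Foxo1, Foxo3, Foxo4, Foxm1, Foxk1, Foxk2, Foxp1 and Foxj3. They were chosen by symbol: a probe set was taken when the platform annotation gave it a single symbol on this list, and each of the 10 genes had 1 such probe set. They were 10 of the 43 forkhead genes with a single symbol, on an array of 25175 probe sets that covered 19452 singly named genes. The probe sets of all 10 lay above the array median at 0 min.

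RNA from proliferating C2C12 cells, a mouse myoblast line, was hybridised to 15 Affymetrix Mouse Gene 1.0 ST arrays. The cells carried the empty lentiviral vector (LKO1) and were kept below 70% confluency. Transcription was stopped with actinomycin D at 8 µg/mL, and after 30 min in the drug the 0 min RNA was taken, followed by 10, 50, 110 and 230 min. Each of the 5 times had 3 replicates, numbered 1, 2 and 3, and 1 replicate of every time made up a time course. All arrays therefore came from drug-treated cells of 1 line, and no array of cells without the drug was analysed here.

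Forkhead proteins bind DNA through a winged-helix domain and are grouped by letter into subfamilies. FoxO proteins act downstream of insulin and growth factor signalling: phosphorylation by Akt keeps them out of the nucleus, and in muscle they drive atrophy genes. FoxM1 promotes the genes of mitosis in dividing cells, FoxC1 and FoxC2 act in mesoderm and vessels, and FoxK, FoxP and FoxJ proteins include regulators of myogenic progenitors. After transcription is blocked, the fall of a transcript's level reads its decay.

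A level below is the deposited linear ratio of a probe set to the 5th percentile of its array, so 1.00 is that percentile and not the lowest value. Levels of different genes come from different probes and were not set against each other as amounts of RNA. At 0 min, 6 of 6 myoblast markers were above the array median, with Myod1 at a mean of 27.3 and Des at 42.3, as were 4 of 4 matched proliferation markers. Of 8 myotube markers 5 were above it: Acta1 (12.02, from 6.07 to 21.74), Tnnt3 (3.65), Mb (3.19), Ckm (2.81) and Myog (2.79). Myh1 (1.37), Myh4 (1.35) and Ttn (1.86) were below. Of 5 adipocyte markers only Pparg (12.06) was above it, and of 5 markers of other cells only Krt8 (2.93). Pearson's r between arrays of the same time, a description across probe sets, was 0.981 to 0.994.

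All 10 forkhead transcripts fell over the time course by limma's linear trend of the log2 level, at slopes of -0.17 to -0.74 log2 per hr, where 75.8% of all probe sets fell and 0.302% rose. Foxc2 fell fastest and Foxo4 slowest. The median slope was -0.43 for the 10, -0.14 for all probe sets and -0.25 for the 12544 probe sets above the array median at 0 min, of which 96.4% fell. The study reports that the half-life experiment was repeated in triplicate. Neither it nor the labels say whether replicates were separate cultures. A p-value here therefore covers only how these arrays vary, which may be technical variation, and the number of arrays limits the precision. In a bulk sample, fewer cells and less RNA per cell cannot be told apart.

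**Figure D1:**
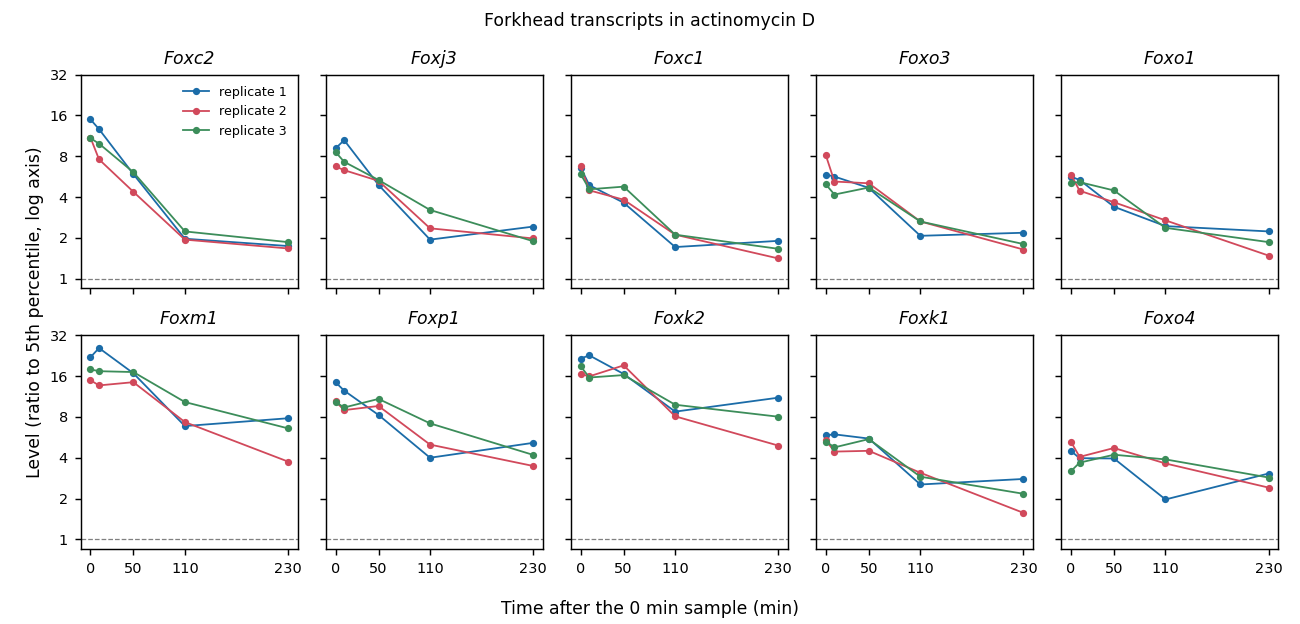
Level of each forkhead transcript (ratio to the 5th percentile of its array, log axis) against time after the 0 min sample in min, with a line for each of the 3 replicates; the dashed line is a ratio of 1. Foxc2 went from 10.86 to 14.95 at 0 min to 1.67 to 1.86 at 230 min, and Foxo4 from 3.19 to 5.23 to 2.41 to 3.06.

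Foxc1 and Foxc2 encode closely related factors of paraxial mesoderm, blood vessels and the eye. Foxc2 was at 14.95, 10.98 and 10.86 at 0 min and at 12.66, 7.58 and 9.90 at 10 min in replicates 1, 2 and 3. It was at 5.90, 4.37 and 6.09 at 50 min, at 1.97, 1.94 and 2.23 at 110 min, and at 1.74, 1.67 and 1.86 at 230 min. From 50 min on, every array was below all 3 arrays of 0 min, and the 110 and 230 min values lay close together. The mean level went from 12.3 ± 2.33 (SD, n = 3) to 1.76 ± 0.096, which was 14.6% ± 2.8 of each replicate's own 0 min level. The slope was -0.74 ± 0.092 log2 per hr (SE, n = 15 arrays; adjusted p = 9.88e-06), steeper than 99.7% of all probe sets, and -1.38 without the 230 min arrays.

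Foxc1 was at 6.56, 6.72 and 5.88 at 0 min and at 4.89, 4.48 and 4.56 at 10 min. Later values were 3.63, 3.82 and 4.77 at 50 min, 1.71, 2.11 and 2.11 at 110 min, and 1.90, 1.41 and 1.66 at 230 min. Foxc1 was the only one of the 10 with all 3 arrays below the 0 min arrays at 10 min, where 5.98% of all probe sets had this order. The difference between these times was not called by limma. At 230 min 26.1% ± 4.4 of the 0 min level remained, and the slope was -0.49 ± 0.060 log2 per hr (adjusted p = 8.29e-06). It was -0.84 without the 230 min arrays and -0.80 with a background of 1 subtracted from the levels.

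The 3 FoxO transcripts encode factors of insulin response, stress resistance and muscle atrophy. Foxo1 was at 5.65, 5.83 and 5.11 at 0 min, at 5.34, 4.45 and 5.15 at 10 min and at 3.39, 3.66 and 4.47 at 50 min. It then was at 2.44, 2.69 and 2.37 at 110 min and at 2.23, 1.48 and 1.86 at 230 min. All arrays from 50 min on were below those of 0 min. Replicate 2 was the lowest at 230 min, as for all of the 10 but Foxj3. The slope was -0.42 ± 0.041 log2 per hr (adjusted p = 1.69e-06), with 33.8% ± 7.4 left at 230 min, and was -0.66 with a background of 1 subtracted.

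Foxo3, the FoxO gene best known for switching on the atrophy programme, was at 5.85, 8.10 and 4.95 at 0 min and at 5.66, 5.20 and 4.17 at 10 min. It was at 4.67, 5.05 and 4.70 at 50 min, at 2.07, 2.64 and 2.64 at 110 min, and at 2.18, 1.64 and 1.80 at 230 min. Replicate 2 stood high at 0 min, and the 50 min values still overlapped those of 0 min. The slope was -0.45 ± 0.052 log2 per hr (adjusted p = 5.82e-06), and 31.3% ± 9.6 was left at 230 min. With a background of 1 subtracted the slope was -0.69.

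Foxo4 was at 4.48, 5.23 and 3.19 at 0 min, at 3.97, 4.06 and 3.68 at 10 min and at 3.95, 4.72 and 4.21 at 50 min. It was at 1.97, 3.63 and 3.89 at 110 min and at 3.06, 2.41 and 2.86 at 230 min. Replicate 3 was higher at 10, 50 and 110 min than at 0 min, and the arrays of 110 min overlapped those of 0 min. Replicate 1 was lower at 110 min than at 230 min, as it was for all of the 10 but Foxc2 and Foxo1. The 75th percentile of the arrays of replicate 1 was also lower at 110 min (3.90) than at 230 min (4.62). At 230 min, where the arrays no longer overlapped those of 0 min, 68.0% ± 21.8 was left, from 46.1% in replicate 2 to 89.7% in replicate 3. The slope was -0.17 ± 0.051 log2 per hr (adjusted p = 0.00926), and 15.9% of the probe sets above the array median were flatter. The call was lost without replicate 2 (-0.12, adjusted p = 0.140) or its 230 min array (-0.13, adjusted p = 0.0677) and without all 230 min arrays (-0.23, adjusted p = 0.0933), and the direction turned with other scalings of the arrays, given below.

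Foxm1 encodes the factor that drives late cell cycle genes. It was at 22.02, 14.92 and 17.93 at 0 min, at 25.76, 13.66 and 17.39 at 10 min and at 16.79, 14.43 and 17.14 at 50 min. It was at 6.85, 7.33 and 10.30 at 110 min and at 7.82, 3.75 and 6.59 at 230 min. The mean share of the 0 min level was 102% at 10 min, 89.5% at 50 min and 45.9% at 110 min, so most of the loss fell between 50 and 110 min. By 230 min 32.5% ± 6.4 was left, and the slope was -0.47 ± 0.054 log2 per hr (adjusted p = 5.53e-06).

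Foxk1, which marks myogenic progenitors and represses together with Sin3 proteins, was at 5.86, 5.38 and 5.27 at 0 min, at 5.95, 4.44 and 4.77 at 10 min and at 5.54, 4.50 and 5.49 at 50 min. It was at 2.54, 3.10 and 2.9 at 110 min and at 2.79, 1.57 and 2.17 at 230 min. Its paralog Foxk2 was at 21.57, 16.61 and 18.88 at 0 min, at 22.74, 15.93 and 15.62 at 10 min and at 16.59, 19.20 and 16.28 at 50 min, followed by 8.75, 8.08 and 9.84 at 110 min and 11.09, 4.92 and 8.03 at 230 min. Both had 50 min arrays that overlapped those of 0 min and 110 min arrays that were all below them. Foxk1 kept 39.3% ± 9.3 and Foxk2 41.2% ± 11 at 230 min. Their slopes were -0.38 ± 0.044 (adjusted p = 6.62e-06) and -0.37 ± 0.056 log2 per hr (adjusted p = 5.58e-05). Without the 230 min arrays the slope of Foxk2 was -0.58, and with a background of 1 subtracted that of Foxk1 was -0.57. Replicate 2 was the lowest at 230 min for both, as for all of the 10 but Foxj3. The 75th percentile of that array (2.89) was the lowest of the 15.

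Foxp1, a transcriptional repressor, was at 14.40, 10.41 and 10.30 at 0 min, at 12.50, 8.98 and 9.39 at 10 min and at 8.27, 9.63 and 10.86 at 50 min. It was at 4.0, 5.0 and 7.17 at 110 min and at 5.15, 3.48 and 4.20 at 230 min. Replicate 3 was above its own 0 min level at 50 min and was the highest of the 3 at 110 min. At 230 min 36.7% ± 3.8 was left, and the slope was -0.39 ± 0.055 log2 per hr (adjusted p = 3.23e-05), or -0.59 without the 230 min arrays.

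Foxj3, an activator of Mef2c in muscle, was at 9.14, 6.72 and 8.58 at 0 min, at 10.50, 6.31 and 7.27 at 10 min and at 4.91, 5.26 and 5.34 at 50 min. It was at 1.94, 2.35 and 3.21 at 110 min and at 2.42, 1.98 and 1.89 at 230 min. After Foxc2 it was the steepest of the 10, at -0.54 ± 0.070 log2 per hr (adjusted p = 1.36e-05), with 26.0% ± 3.8 left at 230 min, and at -0.96 without the 230 min arrays. All arrays from 50 min on were below those of 0 min.

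Counted over the 10, the 3 arrays of a time were all below the 3 of 0 min for 1 gene at 10 min. At 50 min this held for 4 genes, Foxc1, Foxc2, Foxo1 and Foxj3, where 13.1% of all probe sets had this order. At 110 min it held for 9, all but Foxo4 (56.9% of all probe sets), and at 230 min for 10 (71.7%). Such shares were not taken among the probe sets above the array median at 0 min, where all 10 lay.

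The 4 intervals between successive times differ in length, p-values were adjusted within each, and no rates were taken. Of these, the one from 50 to 110 min was the only one in which forkhead transcripts passed the test with the main settings. There, 9 of 10 fell by limma's test of the change in log2 level, where 35.8% of all probe sets fell. For this and every other span of time below, the share is over all probe sets. All 10 lay above the array median at 0 min, and the share among such probe sets was not taken. The log2 change was -1.40 for Foxc2 (adjusted p = 0.00043), -1.08 for Foxj3, -1.04 for Foxc1, -1.0 for Foxm1, -0.98 for Foxo3, -0.97 for Foxk2, -0.86 for both Foxp1 and Foxk1, and -0.61 for Foxo1 (adjusted p = 0.0117). Foxo4 differed by -0.50 and did not pass (adjusted p = 0.107), though it did with probe sets below the array median left out of the fit (adjusted p = 0.0348) and with the intensity-trend variance model (adjusted p = 0.0303). Its difference was -0.25 without replicate 1 and -0.17 without the 110 min array of that replicate, and it turned to 0.20 with the 75th percentile and 0.10 after quantile normalization, with no call. The median change was -0.97 for the 10, -0.31 for all probe sets and -0.60 for those above the array median. The 75th percentile of the arrays went from 7.36 to 7.84 at 50 min to 3.90 to 5.46 at 110 min, in the same interval, and its part in the result was not tested. When arrays were divided by their 75th percentile only Foxc1 and Foxc2 passed, and without replicate 3 only Foxc1, Foxc2, Foxj3 and Foxo3 did.

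No forkhead transcript passed between 0 and 10 min by limma, where no probe set did (0.0%). Foxc1 differed by -0.46 there, with an unadjusted p of 0.00755, and was the only one of the 10 with an unadjusted p under 0.05. Between 10 and 50 min none of the 10 passed, where 0.0278% of all probe sets fell, and 3 had an unadjusted p under 0.05. These were Foxc2 at -0.87 (unadjusted p = 7.39e-05, adjusted p = 0.0880), Foxj3 at -0.60 and Foxo1 at -0.38. For comparison, Foxk1 from 50 to 110 min changed by -0.86 and passed with an unadjusted p of 0.000178. Between 10 and 50 min Foxc2 did pass with arrays divided by their median or after quantile normalization. It also passed there with probe sets below the array median left out, with the intensity-trend variance model or without the 110 min array of replicate 1. With the other settings it did not.

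Between 110 and 230 min none of the 10 passed, where 0.0119% of all probe sets fell. At an unadjusted p under 0.05 were Foxm1 at -0.47, Foxo1 at -0.45, Foxk1 at -0.42 and Foxo3 at -0.39. Without replicate 1, Foxm1, Foxo1, Foxk1 and Foxp1 passed, and without its 110 min array alone Foxm1 and Foxk1 did. From 0 to 230 min all 10 fell, where 68.8% of all probe sets did, from -2.79 for Foxc2 to -0.61 for Foxo4 (adjusted p = 0.0327). Foxo4 did not pass without replicate 2 (-0.35, adjusted p = 0.358) or its 230 min array (-0.41, adjusted p = 0.155). Nor did it with a background of 1 subtracted (-0.86, adjusted p = 0.0737) or with arrays divided by their median (0.10, adjusted p = 0.649). It was higher at 230 min when arrays were divided by their 75th percentile (0.56, adjusted p = 0.0017) and after quantile normalization (0.52, adjusted p = 0.00772). With the other settings it fell and passed. The median was -1.62 for the 10 and -0.91 for probe sets above the array median.

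**Figure D2:**
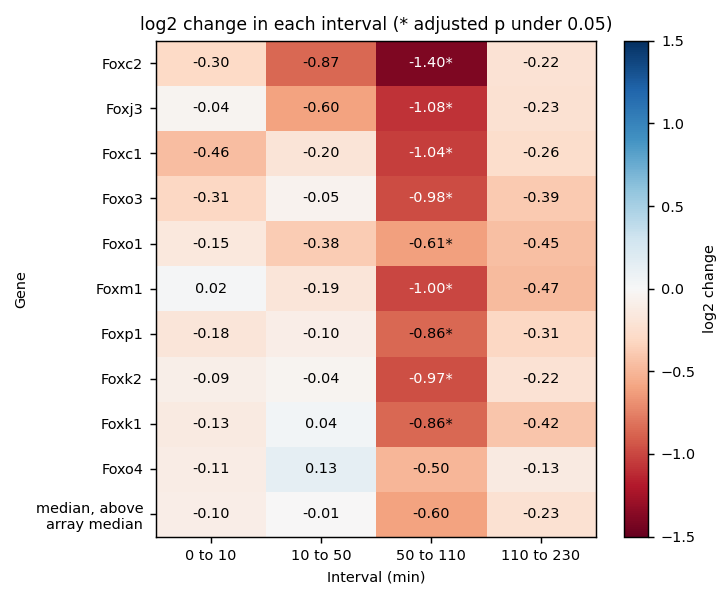
Mean log2 change of each forkhead transcript (rows) in each of the 4 intervals between successive times in min (columns), red for a decrease, with an asterisk where limma's adjusted p was under 0.05; the last row is the median of the probe sets above the array median. The asterisks stand only in the 50 to 110 min column, for 9 of 10 genes.

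A slope from the deposited levels also holds the shift of the whole array, whose median went from 2.42 to 2.74 at 0 min to 1.44 to 1.72 at 230 min. With each array divided by its own median, 9 of 10 forkhead transcripts fell faster than the middle probe set, where 21.4% of all probe sets were faster and 40.3% slower. Foxo4 was at 0.02 log2 per hr and was not called (adjusted p = 0.737). With a background of 1 subtracted the count was 7, as Foxk2 (-0.03, adjusted p = 0.696) and Foxp1 (-0.08, adjusted p = 0.242) no longer passed. The slopes were also taken against the median of the probe sets above the array median, a setting chosen after seeing the data.

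That median itself had a slope of -0.32 log2 per hr. Against it 7 of 10 were faster, where 15.1% of the probe sets above the array median were faster and 48.8% slower (7.54% and 74.2% of all probe sets). These were Foxc2 (-0.42), Foxj3 (-0.23), Foxc1 (-0.17), Foxm1 (-0.15), Foxo3 (-0.13), Foxo1 (-0.10) and Foxp1 (-0.07 log2 per hr, adjusted p = 0.0385). Foxk1 at -0.06 (adjusted p = 0.0703) and Foxk2 at -0.05 (adjusted p = 0.140) did not pass. Foxo4 was slower than that median, at 0.15 log2 per hr (adjusted p = 0.000174). The 75th percentile of an array is by construction close to that median, so dividing by it is nearly the same setting and no second result (7 falling, 1 rising and 2 not called, where 7.56% of all probe sets fell and 74.1% rose).

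**Figure D3:**
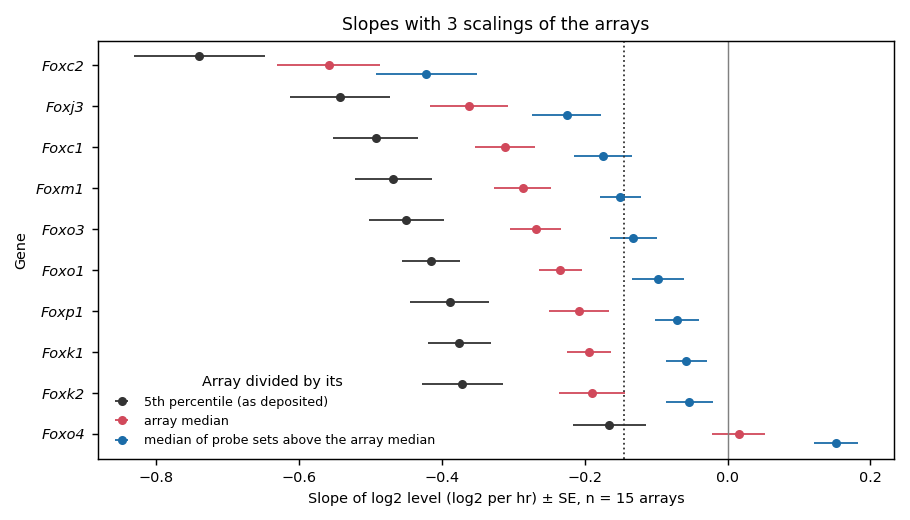
Slope of the log2 level of each forkhead transcript (log2 per hr, points, with SE bars, n = 15 arrays) as deposited, with arrays divided by their median, and with arrays divided by the median of the probe sets above it; the dotted line is the median slope of all probe sets as deposited. Foxo4 went from -0.17 to 0.02 and 0.15, while Foxc2 went from -0.74 to -0.42.

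The ratio of paralogs on the same array does not change when every value of an array is divided by the same number, and 5 such pairs were compared. Foxc2 fell faster than Foxc1, by -0.25 log2 per hr (95% interval -0.38 to -0.11; limma adjusted p = 4.59e-05), where 0.902% of all probe sets were steeper than Foxc1. The difference was -0.38, -0.14 and -0.22 in replicates 1, 2 and 3, and an exact permutation test of the times within each time course, two-sided over 1728000 orders, gave p = 0.00136. Foxc2 was the steeper in 3 of 3 replicates, and the difference was -0.54 without the 230 min arrays. With a background of 1 subtracted it was -0.24 (limma adjusted p = 0.00945). Foxc2 went from a mean level of 12.3 at 0 min to 2.05 at 110 min, and Foxc1 from 6.39 to 1.98. Both were then near the array medians of 110 min (1.59 to 1.92), and the part of a floor near 1.00 in the difference was not tested.

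Within the FoxO genes, Foxo4 was flatter than Foxo1 by 0.25 log2 per hr (95% interval 0.13 to 0.37; exact permutation p = 0.000376), where 86.5% of all probe sets were flatter than Foxo1. The replicates gave 0.18, 0.22 and 0.35. Foxo4 was flatter than Foxo3 by 0.28 (95% interval 0.20 to 0.37; exact permutation p = 1.74e-06), where 89.4% were flatter than Foxo3. All 3 replicates were close here, at 0.24, 0.30 and 0.31. Without the 230 min arrays the 2 differences were 0.39 and 0.44, and with a background of 1 subtracted 0.42 and 0.45.

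Foxo3 and Foxo1 differed by -0.03 log2 per hr (95% interval -0.12 to 0.05; exact permutation p = 0.400; 2.45% of all probe sets were steeper than Foxo1), and the replicates had both signs. Foxk2 and Foxk1 differed by 0.00 (95% interval -0.08 to 0.09; exact permutation p = 0.912), where 3.76% of all probe sets were steeper and 82.3% flatter than Foxk1. For these 2 pairs differences inside the intervals were not detectable with 15 arrays. The Foxk difference was 0.16 (limma adjusted p = 0.0139) with a background of 1 subtracted from all levels, a setting in which no permutation test was run. It had the other sign with several other settings.

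**Figure D4:**
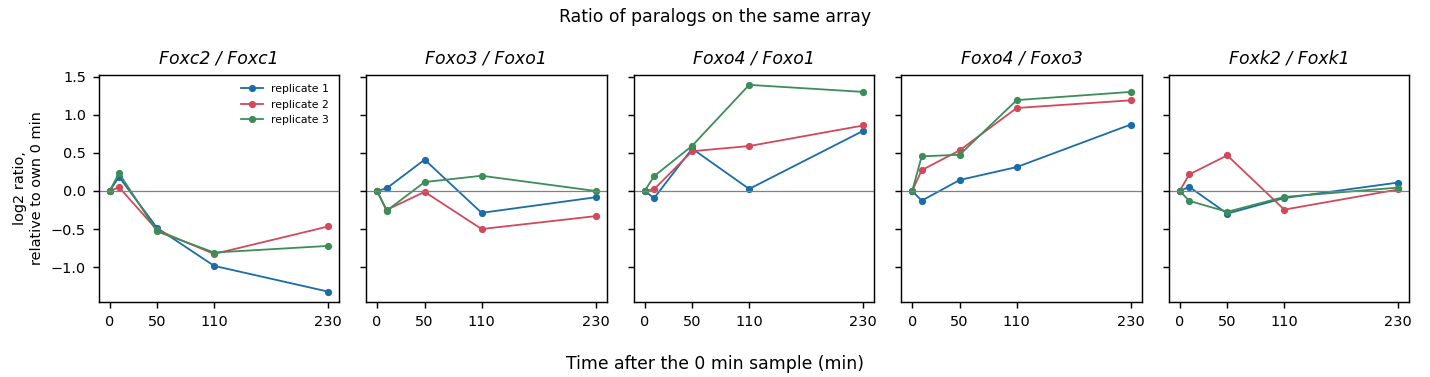
log2 of the ratio of paralogs on the same array, relative to its own 0 min value, against time in min for the 3 replicates in each of 5 pairs. Foxc2 over Foxc1 goes down in 3 of 3 replicates (slopes -0.38, -0.14 and -0.22 log2 per hr), Foxo4 over Foxo1 and Foxo4 over Foxo3 go up, and Foxk2 over Foxk1 has replicates on both sides of 0.

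Half-lives were fitted to each time course as a single exponential. A half-life was called reliable when the decay rate had p under 0.05 and its 95% interval was narrower than 2 times the half-life, in at least 2 of 3 replicates. This held for 3 of 10, Foxc2, Foxj3 and Foxo1, where it held for 11.2% of the probe sets above the array median and 5.84% of all.

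Foxc2 had half-lives of 38.8, 43.1 and 57.9 min in replicates 1, 2 and 3, with a mean of 46.6 ± 9.99 min (SD, n = 3). Foxj3 had 57.9, 101 and 88.6 min, a mean of 82.7 ± 22.4. Foxo1 had 122, 112 and 131 min, a mean of 122 ± 9.39. The median over the 1400 reliable probe sets above the array median was 2.20 hr, with 10% under 1.33 hr.

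For the other 7 the means are fitted values that did not meet the rule. They were 91.3 ± 17.9 min for Foxc1, 121 ± 36.3 for Foxo3, 124 ± 32 for Foxm1, 143 ± 55.6 for Foxp1, 154 ± 20.1 for Foxk2 and 159 ± 14.3 for Foxk1. Foxo4 had 289, 244 and 998 min, a mean of 510 ± 423 that rested on replicate 3 and was 266 min without it.

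In order of mean half-life, only Foxc2 and its neighbour Foxj3 were apart by more than both SDs, by 36.1 min, with Foxj3 longer in 3 of 3 replicates. Foxk1 and Foxo4 were apart by 351 min, which was within the SD of Foxo4, though Foxo4 was longer in 3 of 3 replicates. Foxo3 was longer than Foxc1 in 3 of 3 as well, with a gap of 30.0 min within the SD of Foxo3. The other neighbours were apart by less than their SDs, with the later of the pair longer in 1 or 2 of 3 replicates. Foxc2 was the shortest in 10 of 10 other settings that refitted the half-lives and Foxo4 the longest in 9 of 10, while it had no value when arrays were divided by their 75th percentile.

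The lengths themselves moved with the scaling and the decay model. Foxc2 was at 64.1 min with arrays divided by their median, at 84.4 min with the 75th percentile, at 32.5 min with a constant floor in the model and at 81.7 min from a straight line through the log2 values. Foxj3 was at 133 min with the median, 252 min with the 75th percentile, 53.1 min with the floor and 111 min from the line. Foxo1 moved more, to 240, 734, 63.3 and 147 min in the same order. The count of reliable half-lives was 0 with either scaling or with the floor, and 2, 1 and 0 without replicates 1, 2 and 3.

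**Figure D5:**
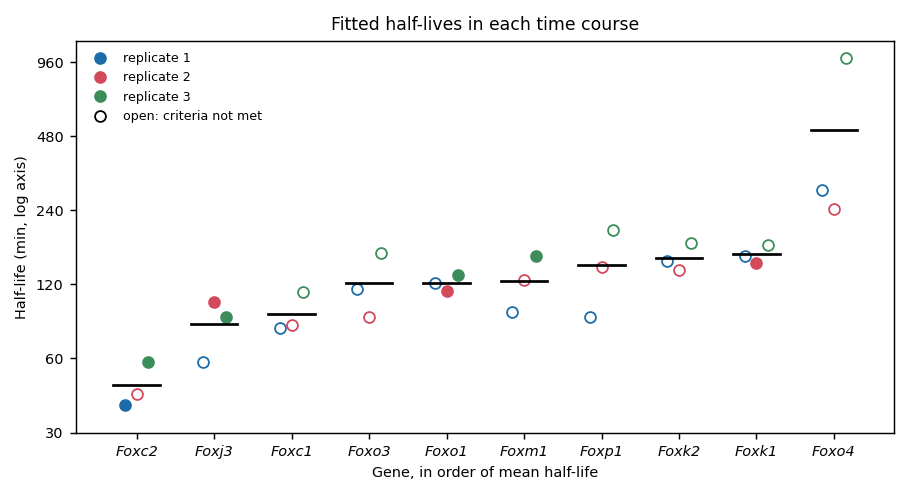
Half-life of each forkhead transcript in min (log axis) in order of the mean, with a point for each replicate and a bar at the mean; filled points met both criteria for a reliable fit and open points did not. Foxc2 sits lowest, at 38.8 to 57.9 min, and replicate 3 of Foxo4 highest, at 998 min.

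Of the 33 other forkhead genes, 31 fell by the trend test (75.8% of all probe sets) and Foxa1 (adjusted p = 0.0832) and Foxa3 (adjusted p = 0.0891) did not pass, with a median slope of -0.14. Of these, 14 were above the array median at 0 min, and all 14 fell (96.4% of such probe sets), with a median slope of -0.23 beside -0.43 for the 10. Foxf2, a factor of mesenchyme, was the steepest of them at -0.60 log2 per hr, with levels of 7.31 ± 0.47 at 0 min and 1.67 ± 0.33 at 230 min (SD, n = 3). Foxp4 followed at -0.40, Foxs1 at -0.38, Foxj2 at -0.36, Foxn2 at -0.34, Foxn3 at -0.28 and Foxi2 at -0.25. Foxb2 and Foxl1 were at -0.21, Foxq1 at -0.20, Foxe3 at -0.15, Foxd2 at -0.14, and Foxe1 and Foxl2 at -0.13. The 14 started at mean levels of 2.67 to 8.31 and the 10 at 4.30 to 19.0. The 2 sets were not matched for starting level. Foxf2, Foxp4, Foxs1, Foxj2 and Foxn2 started at 5.50 to 8.31, and the others of the 14 at 2.67 to 4.35. A start nearer 1.00 leaves less room to fall, and its part in the flatter median of the 14 was not tested. Against the median of probe sets above the array median, Foxf2 and Foxp4 were faster, 7 of the 14 slower and 5 not called.

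In the gene order of assembly GRCm38.p6, Foxc1 lies beside Foxq1 and Foxf2, and Foxc2 has Foxf1, Mthfsd and Foxl1 as close neighbours. Of these forkhead neighbours only Foxf2 fell faster than the median of probe sets above the array median. Foxf1 was below the array median at 0 min, with a slope of -0.15.

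For the gene lists that follow, transcription was blocked in every array, so a fall reads the decay of the listed transcript itself. Whether forkhead proteins acted on these genes was not tested. Genes that FoxO proteins are known to activate were all lower later in the time course: 22 of 22 fell, where 75.8% of all probe sets and 96.4% of those above the array median fell. Their median slope was -0.31 log2 per hr, and 0.01 after the slope of the median of the probe sets above the array median was taken off. Against that median 7 were faster, 7 slower and 8 not called. Of the 20 that were themselves above the array median at 0 min, 7 were faster, 5 slower and 8 not called. This stood beside 15.1% faster and 48.8% slower among such probe sets, and the median slope of the 20 against that median was -0.01. Cited2, a transcriptional co-regulator, was the steepest at -0.99, from 61.5 ± 8.47 to 5.32 ± 1.36, followed by Fbxo32, the atrophy ubiquitin ligase atrogin-1, at -0.55, from 6.75 ± 0.76 to 1.65 ± 0.27 (SD, n = 3). Catalase (Cat) at -0.16 and the autophagy gene Gabarapl1 at -0.15 were the flattest of the 20 above the array median at 0 min.

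Of the genes that regulate FoxO proteins 19 of 19 matched fell, beside the same 96.4%, with a median slope of -0.32. Against the same median 6 were faster, 5 slower and 8 not called (15.1% faster and 48.8% slower among the probe sets above the array median). The kinase Sgk1 (-0.61) and the acetyltransferase Ep300 (-0.58) were steepest, and the 14-3-3 genes Ywhag (-0.18) and Ywhaz (-0.10) flattest. Foxo1 at -0.42 and Foxo3 at -0.45 were steeper than the median of both lists, and Foxo4 at -0.17 flatter.

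Of the FoxM1 target genes 19 of 19 matched fell, where 96.4% of the probe sets above the array median did, with a median slope of -0.39 beside -0.47 for Foxm1 itself. Of these 9 were faster, 1 slower and 9 not called, beside 15.1% faster and 48.8% slower. The mitotic kinases Aurka (-0.77) and Plk1 (-0.61) were steepest, and Bub1 (-0.26) and the centromeric histone Cenpa (-0.24) flattest. Of its partners and regulators 12 of 12 matched fell, again beside 96.4%, with a median of -0.40 (6 faster, 2 slower, 4 not called), from Fzr1 (-0.66) and Plk1 to Chek2 (-0.20) and Lin52 (-0.17).

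Of the genes whose proteins work with FoxK factors, 13 of 13 fell, with a median slope of -0.37, where 96.4% of the probe sets above the array median fell. Of these 5 were faster, 1 slower and 7 not called, beside 15.1% faster and 48.8% slower. Asxl1 (-0.71) and the corepressor Sin3a (-0.62) were steepest, and Ogt (-0.28) and Hdac1 (-0.16) flattest.

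For each forkhead gene, the other genes whose profile was most like it were found among 9878 genes, by Pearson's r over the 15 arrays with each array's median subtracted. These r are descriptions over arrays that share their times. Closest to Foxc1 were Mphosph6 (0.980) and Tsc22d2 (0.977), to Foxc2 Adnp2 and Fam222b (both 0.989), and to Foxj3 Usp42 (0.978) and Trmt12 (0.975). Closest to Foxm1 were Csnk1d and Polr3a (both 0.985), to Foxo1 Klf3 and 9930021J03Rik (both 0.969), and to Foxo3 Zfp358 (0.975) and Fhl2 (0.973). Closest to Foxk1 were Rhog (0.974) and Dpf2 (0.969), to Foxk2 Mink1 (0.983) and Ubap2 (0.974), and to Foxp1 Zfp644 and Zbtb38 (both 0.962). Foxo4 had the lowest likeness to its closest genes, Vwa5a (0.924) and Tmem185a (0.914).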

How the data were processed

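The authors deposited linear ratios for 15 arrays of the C2C12 (LKO1) time courses, each value being a probe set's signal divided by the 5th percentile of its array. How probe sets were summarised and background-corrected, and with which program, is not given in the sources used here. Detection p-values do not come with the ratios. The platform annotation gave a single symbol to 21044 of 25175 probe sets, several to 1492 and none to 2639. A gene table of GRCm38.p6 gave names and gene order only.

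Groups and replicate numbers came from the labels. The log2 ratio, with no pseudocount and no filter on level, was fitted against time in hr in limma 3.58.1 (R 4.3.3) over all probe sets, with the time course as a block. The moderated two-sided p-values (eBayes) were adjusted by Benjamini-Hochberg, with 0.05 as the threshold. The block follows the study, which fits time courses separately. Same-numbered arrays deviated together by over 0.1 in 18 of 30 pairs of times (median correlation 0.227), other arrays in 11 of 60 (median -0.129). Deviations were taken from the mean of the 3 arrays of a time. The value for other arrays therefore follows in part from that for same-numbered ones and is no second result. A fit with time as a factor gave the intervals. Paralogs were compared after subtracting the log2 value of one from the other. Since the subtracted gene's error is then shared by all probe sets, an exact permutation test of each difference was added. Half-lives came from least-squares exponential fits to the unlogged values with scipy 1.17.1 in Python 3.11.15 (numpy 2.4.6, pandas 2.3.3, matplotlib 3.10.9). Scripts were tested on simulated data.

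The members and gene lists were chosen with earlier results of these data known. Named beside the members were the other forkhead genes above the array median at 0 min, the 2 steepest and the 2 flattest genes of each list, and the 2 genes most like each member. Alternatives covered the scaling of arrays, a level filter, the block, left-out replicates, times and arrays, a pseudocount, background subtraction, the variance model, the decay model and the rule for a reliable half-life. Immunoprecipitations and other lines were not analysed here.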

Additional observations from a re-analysis of the deposited data

How the results depend on the processing

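Without the replicate block, 10 of 10 forkhead transcripts fell, as with it, and no other call on them changed. Of 170 other values of the 10 slopes, 162 kept direction and side of the threshold. The slope of Foxo4 turned to 0.015 with arrays divided by their median, 0.15 with the 75th percentile and 0.14 after quantile normalization, and the Foxk1 and Foxk2 slopes no longer passed with the 75th percentile. The Foxk2 minus Foxk1 difference turned to -0.090 without the 230 min arrays and -0.053 with log2(value + 1), and was -0.012 to 0.034 with each replicate left out. With a background of 1 subtracted it was 0.16 and passed by limma, with no permutation test run. Between 10 and 50 min 1 gene passed with the array median, quantile normalization, the level filter or the intensity-trend variance model, or without the 110 min array of replicate 1. Between 50 and 110 min 2 passed with the 75th percentile or quantile normalization, and 4 to 9 with each replicate left out. Between 110 and 230 min 0 to 4 passed with each replicate left out, and 2 without the 110 min array of replicate 1. Reliable half-lives numbered 0 with a floor, either other scaling, all 3 replicates required or no 0 min arrays, 1 without the 230 min arrays, 6 on the p of the rate alone, and 0 to 2 with each replicate left out. The causes were not tested. Other probe sets of a gene could not be tried, since each of the 10 has 1. Without detection p-values, signal over background is unknown, and levels near 1 at 110 and 230 min limit how far a fall can be followed.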
